A study of Mus musculus with 12 samples.

Results

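The 10 tubulin genes Tuba1a, Tuba1b, Tuba1c, Tuba4a, Tuba8, Tubb2a, Tubb2b, Tubb4b, Tubb5 and Tubb6 were followed through the livers of wild type and hepatocyte-specific PPARα knock out mice on a control or a steatohepatitis diet. They are the rows of the count table whose mapped symbol was on a list of 5 alpha-tubulin and 5 beta-tubulin isotypes, 10 of 55357 genes, and all 10 passed the filter on low counts. Liver RNA of 12 male C57BL/6J mice was sequenced, from 4 chow-fed (WT chow) and 3 CDAHFD-fed (WT CDAHFD) wild types and from 2 chow-fed (KO chow) and 3 CDAHFD-fed (KO CDAHFD) knock outs. CDAHFD is a high-fat diet that lacks choline and supplies its amino acids in defined amounts. The diets were given for 6 weeks from 7 weeks of age, and the livers were taken at 13 weeks. The KO mice were PPARafl/fl AlbuminCreTg/+ and the WT mice PPARafl/fl AlbuminCre+/+, so that the controls carried the floxed allele too. Cre is driven by the albumin promoter and acts in hepatocytes, so other liver cells of the KO mice keep the receptor. Each library was taken as 1 mouse, and p-values measure the spread between these libraries.

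Alpha-tubulin and beta-tubulin pair into heterodimers, and the heterodimers assemble end to end into the wall of the microtubule. Mammals encode each subunit in several genes, the isotypes, whose products are nearly identical in their folded body and differ most in the charged C-terminal tail, where motors and modifying enzymes bind. In hepatocytes microtubules carry secretory vesicles, lipoproteins and transporters between the cell centre, the sinusoidal face and the bile canaliculus, and in dividing cells of any type they form the spindle.

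The targeted gene Ppara was lower in every KO library than in any WT library, at 14.4 and 38.7 CPM (counts per 1000000, on library sizes scaled by the trimmed mean of M values, TMM) in KO chow and 36.3, 20.7 and 51.9 CPM in KO CDAHFD. WT chow gave 120, 96.2, 238 and 226 CPM and WT CDAHFD 59.5, 75.5 and 73.5 CPM. Total counts ran from 29906785 to 43551003 per library, and TMM factors from 0.729 to 0.827 in WT chow and from 1.03 to 1.26 in the other groups. Libraries of 1 group differed in the state of the circadian clock, and the labels give no time of sampling. A clock score was taken as the mean scaled log2 CPM of Arntl, Npas2, Clock and Cry1 minus that of Nr1d1, Nr1d2, Dbp, Tef, Per2, Per3 and Ciart, genes that peak at opposite times of day. It was 1.99, 1.63, -1.91 and -2.11 in WT chow, 1.63 and -1.14 in KO chow, 0.34, 0.95 and 0.90 in WT CDAHFD and 0.49, 0.42 and -3.19 in KO CDAHFD. WT chow replicates 3 and 4, KO chow replicate 2 and KO CDAHFD replicate 3 thus stood apart, and results that rest on them are given below with and without them.

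The isotype genes lie on 7 chromosomes of GRCm38 (positions and exons from GENCODE M21). The Tuba1 genes form a cluster on chromosome 15, with Tuba1b at chr15:98931425-98934565 and Tuba1a at chr15:98949837-98953703 on the minus strand and Tuba1c at chr15:99029891-99038110 on the plus strand. Tubb2a (chr13:34074274-34078007) and Tubb2b (chr13:34126748-34130466) are neighbours on the minus strand of chromosome 13. Tuba4a lies at chr1:75214228-75219865 (minus), Tuba8 at chr6:121210696-121226854 (plus), Tubb4b at chr2:25222160-25224702 (minus), Tubb5 at chr17:35833921-35838306 (minus) and Tubb6 at chr18:67390717-67402749 (plus). The counts cover whole genes, that is the summed exons, which run from 1610 bases in Tubb2a to 3701 bases in Tuba4a.

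Genes of this kind can share reads, and the extent was measured as the share of 100-base windows of a gene's transcripts that occur letter for letter in the transcripts of another gene. It was 65.8% in Tuba1a, 65.2% in Tuba1b and 46.0% in Tuba1c, which share windows with one another, with pseudogenes and with other genes. Among the latter is Gm49450, annotated as protein-coding on the same strand. Its exons cover 26.2% of the exon length of Tuba1a and 22.7% of that of Tuba1b. Gm49450 had 4 counts in all, and how reads of that stretch were counted is not known. Tubb2a (36.9%) and Tubb2b (26%) share windows mostly with each other, and Tubb4b (22%) with its pseudogenes. Tubb5 and Tubb6 shared no such window, and Tuba4a and Tuba8 none with another tubulin gene. The split of reads within the Tuba1 cluster, and between Tubb2a and Tubb2b, is therefore less certain than the level of Tubb5 or Tubb6. The limit of Tuba4a is another, since all of its shared windows (32.4%) lie in Stk16, a kinase gene on the other strand. Exons of Stk16 cover 37.3% of its exon length, the count of Stk16 was 53.8% of that of Tuba4a, and the libraries do not keep strand. The shared windows of Tuba8 (12.5%) all lie in the antisense gene Gm15856, whose count was 1.24% of that of Tuba8.

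Promoter sequence is shown for 4 members on which later results turn, namely Tubb2a, Tubb4b and Tuba1c, which had the largest change per unit of the clock score, and Tuba8, the one isotype whose level differed between KO chow and WT CDAHFD. The bases are those before the start in RefSeq (GRCm38.p6), 5′ to 3′ on the strand of the gene and cut back to bases outside every GENCODE M21 exon, with matches to the motifs searched in capitals.
Tubb2a, chr13:34078009-34078258, minus strand: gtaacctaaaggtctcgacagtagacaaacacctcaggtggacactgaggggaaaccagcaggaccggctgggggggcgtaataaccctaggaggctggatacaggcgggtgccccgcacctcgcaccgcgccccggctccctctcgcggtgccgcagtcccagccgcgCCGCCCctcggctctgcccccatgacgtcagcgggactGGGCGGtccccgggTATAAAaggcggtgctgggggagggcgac
Tubb4b, chr2:25224703-25224952, minus strand: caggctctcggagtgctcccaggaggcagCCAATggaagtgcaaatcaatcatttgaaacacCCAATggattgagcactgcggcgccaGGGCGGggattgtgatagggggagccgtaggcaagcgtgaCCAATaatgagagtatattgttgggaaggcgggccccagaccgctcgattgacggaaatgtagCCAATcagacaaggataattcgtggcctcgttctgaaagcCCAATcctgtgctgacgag
Tuba1c, chr15:99029641-99029890, plus strand: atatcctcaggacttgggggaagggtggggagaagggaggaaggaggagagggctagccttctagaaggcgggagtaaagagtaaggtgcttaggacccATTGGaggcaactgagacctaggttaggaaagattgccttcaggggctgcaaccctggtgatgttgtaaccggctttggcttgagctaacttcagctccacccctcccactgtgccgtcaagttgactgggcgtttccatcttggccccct
Tuba8, chr6:121210484-121210695, plus strand: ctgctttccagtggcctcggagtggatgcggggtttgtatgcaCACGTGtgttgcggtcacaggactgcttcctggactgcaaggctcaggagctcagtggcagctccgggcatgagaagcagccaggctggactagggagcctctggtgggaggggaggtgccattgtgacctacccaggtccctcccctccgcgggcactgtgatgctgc
The motifs searched, on both strands of the 250 bases before the start, were the TATA box (TATAAA), the CCAAT box (CCAAT), the GC box (GGGCGG), the E-box (CACGTG), the D-box (TTATGTAA) and the direct repeat 1 that PPARα and its partner bind (AGGTCA, 1 base of any kind and AGGTCA again). No motif is contained in another. RefSeq sequence was at hand for 8 members, all but Tubb2b and Tubb6. Tubb2a was the one member with a TATA box, whose first base lies at -29, against 12.3% of 32536 promoters. Tubb4b had 5 CCAAT boxes, at -221, -188, -122, -59 and -19, and 4 of the 8 members had at least 1, against 33.8% of all promoters. A match on the other strand reads in reverse, as the ATTGG of Tuba1c for CCAAT and the CCGCCC of Tubb2a for the GC box. A GC box was found in 5 members (33.0% of all promoters) and an E-box in Tuba8 and Tubb5 (6.04%). Neither the D-box (0.811%) nor the direct repeat (0.0338%) was found in these windows, which says nothing about either factor.

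In WT chow liver the isotype pool was led by 3 genes. Per kilobase of exon, Tubb4b had 80.8 ± 19.0 CPM (SD, n = 4), Tubb2a 75.1 ± 55.3 and Tuba4a 68.4 ± 13, so that their order lies within the spread between mice. Tuba1c (29.6 ± 7.11), Tubb5 (27.8 ± 5.82) and Tuba1b (21.8 ± 2.79 CPM per kilobase) came next. The other members were far lower, with Tubb6 at 3.73 ± 0.453, Tuba1a at 2.21 ± 0.456, Tuba8 at 0.578 ± 0.330 and Tubb2b at 0.0665 ± 0.0189 CPM per kilobase. In the 3 other groups Tubb2a ranked highest, at 207 ± 64.2 in KO chow (n = 2), 166 ± 29.1 in WT CDAHFD (n = 3) and 146 ± 66.3 CPM per kilobase in KO CDAHFD (n = 3), and Tuba4a, the third in WT chow, ranked sixth.

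**Figure D1:**
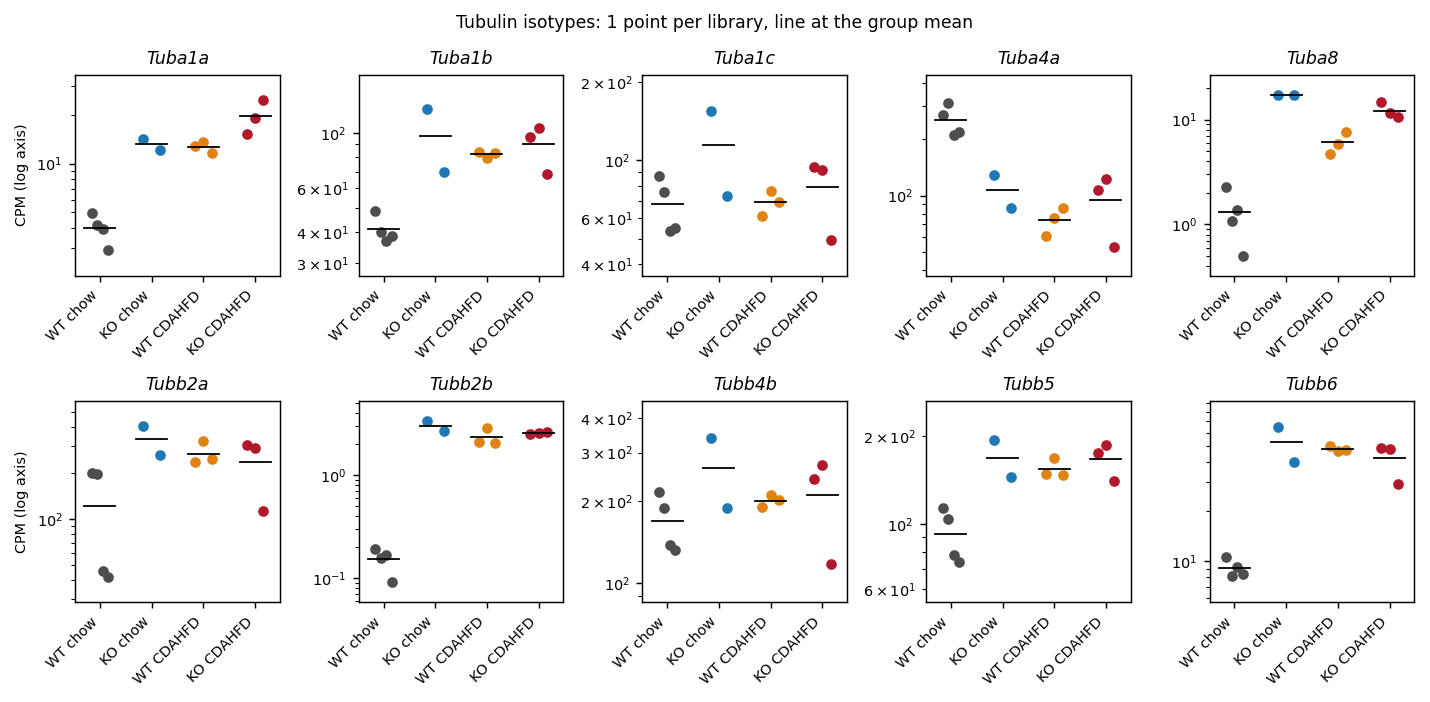
CPM (log axis, a scale of its own for each gene) of the 10 isotypes, 1 point per library and a line at the group mean, in WT chow (n = 4), KO chow (n = 2), WT CDAHFD (n = 3) and KO CDAHFD (n = 3). Tuba4a sits highest in WT chow, Tuba1a, Tuba1b, Tuba8, Tubb2b, Tubb5 and Tubb6 sit lowest there, and the ranges of Tuba1c and Tubb4b overlap between WT chow and each other group.

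The first question was what the loss of hepatocyte PPARα or CDAHFD does to each isotype. Comparisons with WT chow show the knock out alone (KO chow), the diet alone (WT CDAHFD) and both (KO CDAHFD). In each of them the same 7 isotypes changed, 6 higher and Tuba4a lower, by edgeR's quasi-likelihood test at an adjusted p under 0.05. The background is high, since 39.0% of the 17358 genes tested were called with the knock out alone (22.0% higher and 17.0% lower), 51.1% with the diet alone (26.1% and 25.0%) and 52.4% with both (26.9% and 25.4%). The median change of the 10 members was, in the same order, 1.35, 1.08 and 1.05 on the log2 scale, against 0.00, -0.05 and -0.04 over all genes tested. The 3 comparisons share the WT chow libraries. In KO chow 7 members lay above and 1 below every WT chow library (50.2% of all genes tested did not overlap in either direction), in WT CDAHFD 7 and 1 (55.4%) and in KO CDAHFD 6 and 1 (51.5%).

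Tuba4a, an alpha isotype whose gene does not encode the C-terminal tyrosine of most others, was the member that fell. It stood at 271, 313, 211 and 218 CPM in WT chow, 129 and 85.9 CPM in KO chow, 60.9, 75.6 and 86.1 CPM in WT CDAHFD and 107, 123 and 52.9 CPM in KO CDAHFD. Every library of the 3 other groups lay below every WT chow library. The log2 fold change was -1.23 ± 0.31 (SE, adjusted p = 0.00683, edgeR) with the knock out alone, -1.77 ± 0.27 (adjusted p = 0.000146) with the diet alone and -1.42 ± 0.27 (adjusted p = 0.000656) with both. The call in KO chow was lost without KO chow replicate 2 (-0.97, adjusted p = 0.0808). Stk16 on the opposite strand was lower as well, with 94.8 to 106 CPM in WT chow, 58.1 and 69.3 CPM in KO chow, 59.0 to 64.2 CPM in WT CDAHFD and 43.4 to 59.1 CPM in KO CDAHFD, and reads of the shared stretch cannot be told apart.

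Tuba1b, an alpha isotype made in most cells, had 48.6, 40.0, 36.8 and 38.5 CPM in WT chow, 125 and 69.5 CPM in KO chow, 83.7, 79.7 and 83.2 CPM in WT CDAHFD and 96.8, 105 and 68.7 CPM in KO CDAHFD. The WT CDAHFD libraries lay close to one another and the 2 KO chow libraries far apart, all above WT chow. The fold change was 2.37 with the knock out alone (log2 1.25 ± 0.21, adjusted p = 0.000458, edgeR), 2.01 with the diet alone (1.01 ± 0.19, adjusted p = 0.000715) and 2.20 with both (1.14 ± 0.19, adjusted p = 0.000255). Tuba1a, the alpha isotype best known from the developing brain, started lower and rose further. Its CPM were 4.93, 4.16, 3.93 and 2.94 in WT chow, 14.2 and 12.1 in KO chow, 12.8, 13.7 and 11.6 in WT CDAHFD and 15.3, 19.2 and 24.6 in KO CDAHFD. The log2 fold change was 1.72 ± 0.20 (adjusted p = 3.34e-05, edgeR) with the knock out alone, 1.67 ± 0.19 (adjusted p = 1.12e-05) with the diet alone and 2.30 ± 0.19 (adjusted p = 7.05e-07) with both. Tuba1a was the one member highest in KO CDAHFD, where all 3 libraries lay above every other library of the series, but KO CDAHFD did not differ from KO chow or WT CDAHFD past the threshold.

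Tuba1c, the third gene of that cluster, did not pass the test in any comparison with WT chow. It had 86.9, 75.4, 53.7 and 54.8 CPM in WT chow, 156 and 73.2 CPM in KO chow, 61.2, 76.3 and 69.5 CPM in WT CDAHFD and 94.6, 92.2 and 49.6 CPM in KO CDAHFD. All groups overlapped, and the log2 fold changes were 0.76 ± 0.30 (adjusted p = 0.0652, edgeR) with the knock out alone, 0.03 ± 0.27 (adjusted p = 0.942) with the diet alone and 0.22 ± 0.27 (adjusted p = 0.529) with both. In CPM, not scaled by exon length, the ratio of Tuba1b to Tuba1c was 0.619 ± 0.0873 in WT chow and 0.876 ± 0.105 with the knock out alone. It was 1.20 ± 0.161 with the diet alone and 1.18 ± 0.185 with both, with no overlap of the other groups with WT chow.

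Tuba8, an alpha isotype with a divergent sequence known mainly from muscle and testis, had the largest rise among the alpha genes. The CPM were 2.29, 1.07, 1.37 and 0.505 in WT chow, 17.3 and 17.4 in KO chow, 4.69, 5.92 and 7.67 in WT CDAHFD and 14.6, 11.5 and 10.5 in KO CDAHFD. No group overlapped another, in the order WT chow, WT CDAHFD, KO CDAHFD and KO chow. The fold change against WT chow was 13.1 with the knock out alone (log2 3.71 ± 0.35, adjusted p = 4.78e-06, edgeR), 4.61 with the diet alone (2.21 ± 0.33, adjusted p = 0.000111) and 9.26 with both (3.21 ± 0.33, adjusted p = 4.50e-06).

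Among the beta isotypes, Tubb6 and Tubb5 had the most certain counts, since neither shares a 100-base window with another gene. Tubb6, a minor beta isotype, stood at 10.6, 8.15, 9.20 and 8.39 CPM in WT chow, 64.8 and 39.8 CPM in KO chow, 49.4, 46.6 and 46.9 CPM in WT CDAHFD and 48.5, 47.8 and 29.2 CPM in KO CDAHFD. The lowest value outside WT chow was thus above the highest within it. The log2 fold change was 2.52 ± 0.21 (adjusted p = 2.06e-06, edgeR) with the knock out alone, 2.39 ± 0.20 (adjusted p = 7.74e-07) with the diet alone and 2.20 ± 0.20 (adjusted p = 1.38e-06) with both. Tubb5, the beta isotype of nearly all cells, rose by less, from 114, 104, 78.5 and 73.9 CPM in WT chow to 193 and 144 CPM in KO chow, 148, 168 and 147 CPM in WT CDAHFD and 175, 187 and 140 CPM in KO CDAHFD. Again no library outside WT chow reached down to it, and the fold change was 1.82 with the knock out alone (log2 0.87 ± 0.18, adjusted p = 0.00261, edgeR), 1.67 with the diet alone (0.74 ± 0.17, adjusted p = 0.00255) and 1.80 with both (0.85 ± 0.17, adjusted p = 0.000879). Without KO chow replicate 1 the KO chow call was lost (0.65, adjusted p = 0.0542).

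Tubb2b, a beta isotype of the nervous system, was nearly absent from WT chow liver, with counts of 5, 5, 5 and 2, or 0.194, 0.157, 0.167 and 0.0917 CPM. In the other groups it was present in every library, at 3.40 and 2.69 CPM in KO chow, 2.11, 2.87 and 2.05 CPM in WT CDAHFD and 2.52, 2.59 and 2.62 CPM in KO CDAHFD. It had the largest log2 fold change of the members, at 4.27 ± 0.28 (adjusted p = 3.58e-07, edgeR) with the knock out alone, 3.89 ± 0.27 (adjusted p = 1.91e-07) with the diet alone and 4.03 ± 0.27 (adjusted p = 1.37e-07) with both. Tubb2b shares windows with its far more abundant neighbour Tubb2a, and how reads of those stretches were divided is not known. Tubb2b stood at 1.90 ± 1.31 CPM per 1000 CPM of Tubb2a in WT chow, 9.37 ± 1.41 with the knock out alone, 8.76 ± 0.364 with the diet alone and 13.5 ± 8.47 with both. The lowest library outside WT chow (8.31) was above the highest in it (3.63), where the ratios rest on the 2 to 5 counts of Tubb2b. The part of reads from Tubb2a in the level of Tubb2b was not tested. Of the genes that mark neurons and Schwann cells, Snap25 had at most 3 counts in every library, and the summed level of the 5 such genes was 1.15 to 2.71 CPM in WT chow and 1.43 to 3.45 CPM in the other groups.

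Tubb2a and Tubb4b, the beta isotypes with the highest levels, did not pass the test. Tubb2a had 199.8, 195.9, 45.9 and 41.7 CPM in WT chow, 406 and 260 CPM in KO chow, 235, 321 and 246 CPM in WT CDAHFD and 303, 290 and 112 CPM in KO CDAHFD. WT chow thus fell into a pair of high and a pair of low libraries, and KO chow and WT CDAHFD lay above both. The log2 fold change was 1.46 ± 0.57 (adjusted p = 0.0598, edgeR) with the knock out alone, 1.15 ± 0.52 (adjusted p = 0.0835) with the diet alone and 0.96 ± 0.52 (adjusted p = 0.140) with both. Tubb4b, which is found in most tissues and in cilia, had 215, 188, 139 and 133 CPM in WT chow, 338 and 188 CPM in KO chow, 190, 210 and 202 CPM in WT CDAHFD and 242, 272 and 117 CPM in KO CDAHFD. All groups overlapped, with log2 fold changes of 0.64 ± 0.30 (adjusted p = 0.114, edgeR) with the knock out alone, 0.25 ± 0.27 (adjusted p = 0.467) with the diet alone and 0.32 ± 0.27 (adjusted p = 0.352) with both.

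**Figure D2:**
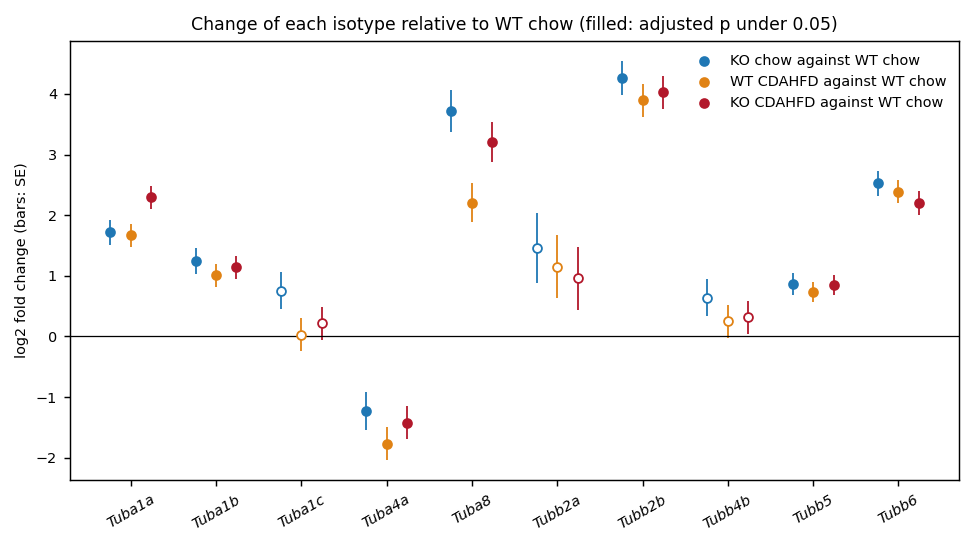
Log2 fold change against WT chow (vertical axis) of each isotype with the knock out alone (KO chow), the diet alone (WT CDAHFD) and both (KO CDAHFD), with bars of 1 SE and filled points where the adjusted p is under 0.05. Tuba4a is the one isotype below 0 in all 3 groups, and Tubb2b (3.89 to 4.27) lies highest in each.

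The changes altered the make-up of the alpha pool. Of the summed alpha level per kilobase, Tuba4a held 51.9%, 59.7%, 55.4% and 55.9% in the WT chow libraries and 15.7% to 22.9% in the 8 others. Tuba1b went the opposite way, from a mean of 18% in WT chow to 35.4% with the knock out alone, 42.4% with the diet alone and 38.9% with both. Tuba8 rose from 0.463% to 5.66%, 2.58% and 4.45%, and Tuba1a from 1.81% to 5.27%, 6.81% and 9.50%, in the same order. Shares of a pool are tied to one another, so that a lower Tuba4a by itself raises the others.

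In the beta pool the shares differed between the libraries of WT chow. Tubb2a held 46.7% and 49.4% in WT chow replicates 1 and 2 but 23.3% and 22.5% in replicates 3 and 4, while Tubb4b held 38.8% and 36.5% in the former and 54.3% and 55.2% in the latter. In the 8 other libraries Tubb4b held 27.1% to 33.6%, below every WT chow library. Tubb2a held 48.2% to 53.8% in KO chow and WT CDAHFD and 49.9%, 46.6% and 38.5% in KO CDAHFD. Tubb6 had 2.27% of the beta pool in WT chow as a mean, and 5.27% with the knock out alone, 6.00% with the diet alone and 5.65% with both.

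The summed levels of the alpha isotypes overlapped between the groups, at 123 ± 21.5 CPM per kilobase in WT chow, 146 ± 55.4 with the knock out alone, 104 ± 5.88 with the diet alone and 124 ± 29.3 with both. The summed beta level was 187 ± 79.7 in WT chow, 406 ± 133 in KO chow, 329 ± 36.6 in WT CDAHFD and 315 ± 116 CPM per kilobase in KO CDAHFD. The ratio of beta to alpha ran from 1.10 to 1.89 in WT chow and from 1.99 to 3.48 in the other groups, with no overlap. The subunits work in equal numbers in the heterodimer, but these ratios are of RNA, and protein was not analysed here. The pools, their shares and the ratio also carry the limit of shared reads. Shared 100-base windows were more frequent in the Tuba1 genes (46.0% to 65.8%) than in any beta isotype (0% to 36.9%). Reads of the stretch that Tuba4a shares with Stk16 cannot be told apart either. The part of shared reads in the ratio was not tested.

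**Figure D3:**
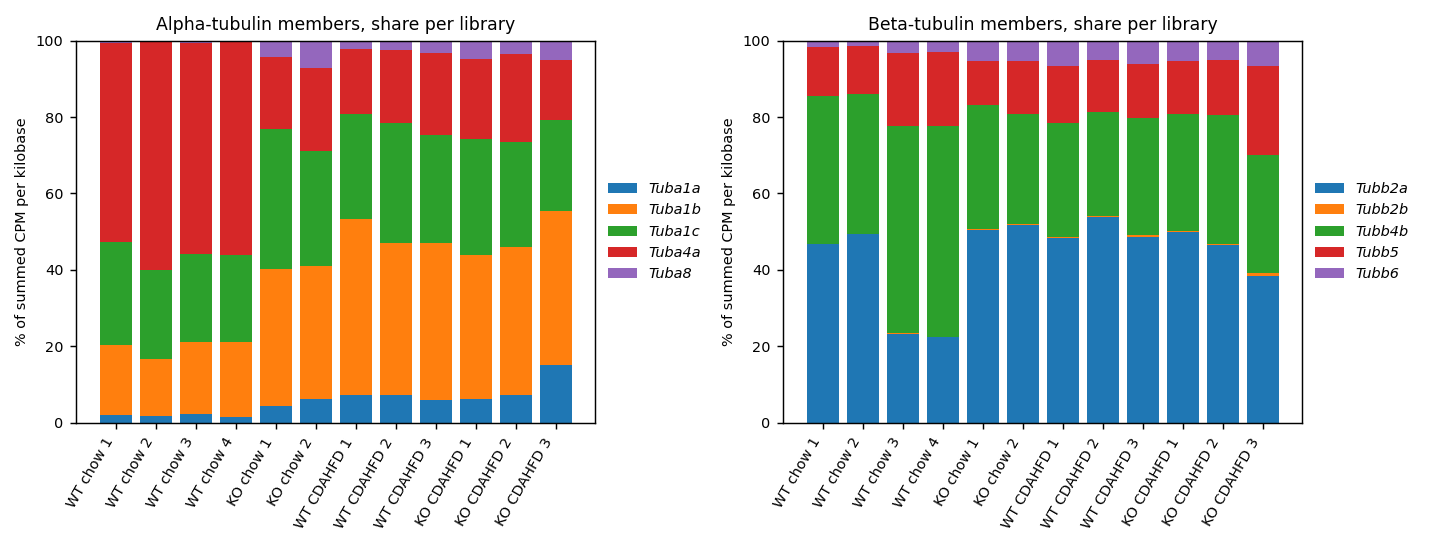
Share of each isotype in the summed CPM per kilobase of the 5 alpha (left) and 5 beta (right) isotypes, as stacked bars to 100%, 1 bar per library. Tuba4a takes 51.9% to 59.7% of the alpha pool in WT chow and 15.7% to 22.9% elsewhere, and Tubb2a takes 22.5% and 23.3% of the beta pool in WT chow replicates 4 and 3.

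Several isotypes followed the clock score within groups. A model with the 4 groups and the score was fitted over the 12 libraries, a comparison added after the score was seen. By edgeR's quasi-likelihood test 6 members rose with the score and none fell, where 8.12% of all genes tested were called (3.68% rose and 4.45% fell). Tubb2a had the largest slope, 0.46 ± 0.04 on the log2 scale per unit of the score (SE, adjusted p = 0.000142), followed by Tubb4b (0.22 ± 0.03, adjusted p = 0.00170) and Tuba1c (0.22 ± 0.03, adjusted p = 0.00191). Tuba4a (0.19 ± 0.04, adjusted p = 0.0107), Tubb5 (0.13 ± 0.02, adjusted p = 0.00406) and Tuba1b (0.12 ± 0.03, adjusted p = 0.0338) also rose. The slope of Tuba1b was past the threshold by little and was lost without WT chow replicate 1 or 3, WT CDAHFD replicate 1 or 3, either KO chow replicate, or KO CDAHFD replicate 2 or 3, with adjusted p from 0.0507 to 0.106. Tubb6 (0.12 ± 0.04, adjusted p = 0.0686), Tuba8 (0.13 ± 0.07, adjusted p = 0.307), Tubb2b (0.05 ± 0.06, adjusted p = 0.687) and Tuba1a (0.01 ± 0.05, adjusted p = 0.942) did not pass. Other genes rose with the score too, among them 3 of the 8 proliferation markers and 4 of 5 haemoglobin genes. The summed proliferation markers were lower in KO chow replicate 2 (126 CPM, against 253 CPM in replicate 1) and in KO CDAHFD replicate 3 (75.0 CPM, against 146 and 151 CPM), while WT chow replicates 3 and 4 (9.20 and 5.92 CPM) lay near replicates 1 and 2 (8.23 and 5.63 CPM). The part of dividing cells or blood in the slopes of the isotypes was not tested.

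The promoters shown above for Tubb2a, Tubb4b and Tuba1c belong to the members with the steepest slopes. None of these windows holds an E-box or a D-box, which are among the elements that clock proteins are known to bind. Both are rare in such windows (6.04% and 0.811% of all promoters) and no other clock element was searched, so their absence here says nothing about clock control. Of the 2 members with an E-box, Tuba8 (at -207) had a slope that did not pass the test and Tubb5 (at -75) one that did. WT CDAHFD, whose scores lay between 0.34 and 0.95, showed the smallest spread for both Tubb4b (189.7 to 210.3 CPM) and Tuba1c (61.2 to 76.3 CPM). Its SD was also the smallest for Tuba1b, Tuba4a, Tubb2a and Tubb5. The WT CDAHFD libraries were close to one another over all genes tested (Spearman's correlation of 0.992 to 0.994, against 0.980 to 0.989 in WT chow). The cause of the small spread was not tested.

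**Figure D4:**
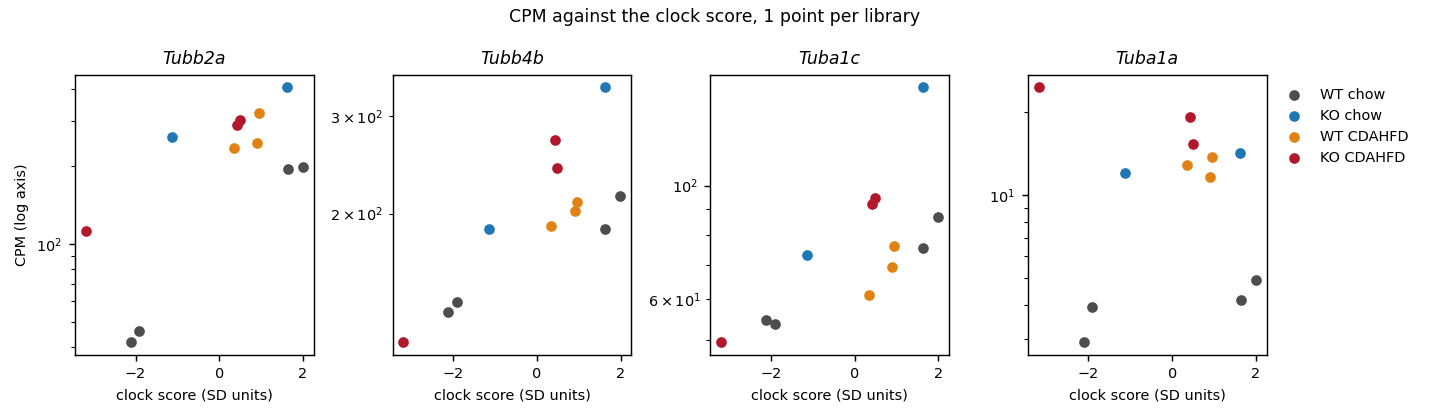
CPM (log axis) of Tubb2a, Tubb4b, Tuba1c and Tuba1a against the clock score in SD units, 1 point per library and a colour per group. Tubb2a, Tubb4b and Tuba1c are lower in the libraries of negative score of each group that has them, whereas Tuba1a separates WT chow (2.94 to 4.93 CPM) from the other groups at any score.

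With the clock score as a covariate, all 10 members were called in KO chow and in KO CDAHFD against WT chow and 8 in WT CDAHFD, where 7600, 9873 and 9624 of the 17358 genes were called. Tubb2a then rose in all 3, with log2 fold changes of 1.66 (adjusted p = 1.9e-05, edgeR) with the knock out alone, 1.12 (adjusted p = 0.000143) with the diet alone and 1.5 (adjusted p = 1.48e-05) with both. Tuba1c and Tubb4b passed in KO chow (0.63 and 0.53, adjusted p = 0.00292 and 0.00721) and KO CDAHFD (0.33 and 0.41, adjusted p = 0.0361 and 0.0120) and not in WT CDAHFD (-0.13 and 0.09, adjusted p = 0.394 and 0.575). Without the 4 libraries of negative score, a choice made after the score was seen, 10, 8 and 9 members were called with the knock out, the diet and both, and 5446, 8672 and 7660 of all genes. Tubb2a was then, in that order, 1.04, 0.44 and 0.58 higher on the log2 scale (adjusted p = 0.00285, 0.0299 and 0.0132), which is less than with the covariate. The 7 isotypes called with all libraries kept their direction and call in both settings.

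The next question was whether the groups other than WT chow differ among themselves. Between KO CDAHFD and WT CDAHFD, the effect of genotype on the diet, 0 members were called by edgeR or by DESeq2, with 0.357% of all genes called. At an unadjusted p under 0.05 there were 2, Tuba1a (log2 0.63 ± 0.19, adjusted p = 0.312) and Tuba8 (1.0 ± 0.32, adjusted p = 0.328). The share of all genes at that threshold is not given here. In both members the groups did not overlap, which held for 20.8% of all genes. Tuba8 was called (adjusted p = 0.0363, edgeR) when every gene with a count was tested, where 215 of 30104 genes were called. The 8 other members differed by -0.19 to 0.35 on the log2 scale, with SEs from 0.18 to 0.56, so that differences of that size were not detectable.

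Between KO CDAHFD and KO chow, the effect of diet on the knock out, 0 members were called by edgeR or by DESeq2 (6.19% of all genes). Tuba1a alone had an unadjusted p under 0.05 (0.58 ± 0.22, adjusted p = 0.137), and the share of all genes at that threshold is not given here. Tuba8 and Tubb2b were lower in KO CDAHFD without overlap and Tuba1a higher, 3 of 10 members where 39.1% of all genes did not overlap. Between KO chow and WT CDAHFD, the knock out against the diet, Tuba8 alone was called (6.12% of all genes), at a log2 difference of 1.51 ± 0.35 (adjusted p = 0.0247, edgeR), and was also the one member without overlap (48.6% of all genes). That call was lost without either KO chow replicate or without WT CDAHFD replicate 1 or 2, at log2 differences of 1.35 to 1.5 and adjusted p of 0.0728 to 0.133. Without the 4 libraries of negative score Tuba1b, Tuba1c, Tuba4a, Tuba8, Tubb2a and Tubb4b were higher in KO chow than in WT CDAHFD, by 0.60 to 1.51 on the log2 scale. KO chow was then a single library, which is assumed to vary like the other groups.

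Sorted by level, the groups fell into steps that differ and steps that do not. The step from WT chow to its nearest group passed the test in 7 members, Tuba1a, Tuba1b, Tuba8, Tubb2b, Tubb5 and Tubb6 from below and Tuba4a from above. These were the same 7 called in each comparison with WT chow. Of all genes tested 39.0%, 51.1% and 52.4% were called there with the knock out, the diet and both. No step between neighbours among the 3 other groups passed in any member, the steps of Tuba8 from WT CDAHFD to KO CDAHFD (a log2 difference of 1.0) and from KO CDAHFD to KO chow (0.50) included.

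The design also asks whether diet and knock out add up, which is the interaction. If they did, the log2 change in KO CDAHFD would be the sum of the changes in KO chow and WT CDAHFD. It fell short of the sum in 6 members past the test and in the direction of a smaller change in all 10, with 23.1% of all genes called (8.63% above 0 and 14.5% below). The changes of Tubb2b in KO chow and WT CDAHFD sum to 8.16, while KO CDAHFD gave 4.03 ± 0.27, a difference of -4.13 ± 0.36 (adjusted p = 9.87e-06, edgeR). Tubb6 gave -2.71 ± 0.30 (adjusted p = 4.59e-05), Tuba8 -2.71 ± 0.47 (adjusted p = 0.00123), Tuba1b -1.11 ± 0.29 (adjusted p = 0.0155) and Tuba1a -1.09 ± 0.28 (adjusted p = 0.0151). For Tuba4a, which fell, the interaction was 1.58 ± 0.41 (adjusted p = 0.0143), with a sum of -3.00 and a measured change of -1.42. Tubb5 (-0.75 ± 0.26, adjusted p = 0.0537), Tubb2a (-1.65 ± 0.81, adjusted p = 0.168), Tubb4b (-0.58 ± 0.42, adjusted p = 0.372) and Tuba1c (-0.56 ± 0.42, adjusted p = 0.382) did not pass. The interactions of Tubb5 and Tubb2a passed with the clock covariate (adjusted p = 0.0108 and 0.00414) and without the 4 libraries of negative score (adjusted p = 0.0373 and 0.0255), so that 8 members were called in each setting, with 4606 and 3647 of all genes. Without KO chow replicate 1 the interactions of Tuba1a (-0.96, adjusted p = 0.0831) and Tuba1b (-0.63, adjusted p = 0.108) were lost, and without KO chow replicate 2 that of Tuba4a (1.31, adjusted p = 0.0743).

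**Figure D5:**
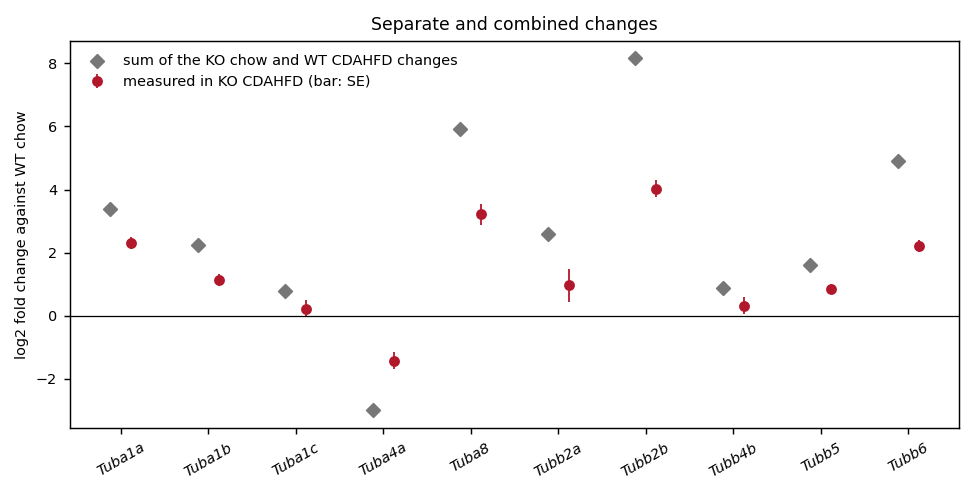
Log2 change against WT chow (vertical axis) of each isotype: the sum of the changes in KO chow and WT CDAHFD (diamonds) and the change measured in KO CDAHFD (circles, bar of 1 SE). The measured change lies nearer to 0 than the sum in all 10 isotypes, by most in Tubb2b (4.03 against 8.16).

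Marker genes of several other cell types, though not of all, moved with the isotypes. In bulk liver, fewer cells of a type and less RNA per cell cannot be told apart. Of all genes tested 22.0%, 26.1% and 26.9% were higher with the knock out, the diet and both. In the same order 17.0%, 25.0% and 25.4% were lower. All 8 proliferation markers were higher in each comparison with WT chow, and their summed level was 5.63 to 9.20 CPM in WT chow, 126 and 253 CPM in KO chow, 129 to 146 CPM in WT CDAHFD and 75.0 to 151 CPM in KO CDAHFD. The 8 macrophage markers summed to 313 to 577 CPM in WT chow and 1105 to 2066 CPM elsewhere (7 of 8 higher in each comparison), the 8 stellate cell markers to 188 to 313 CPM and 1229 to 2283 CPM (5, 5 and 6 of 8 higher with the knock out, the diet and both). The 7 cholangiocyte markers summed to 69.8 to 105 CPM in WT chow, 187 and 306 CPM in KO chow, 386 to 608 CPM in WT CDAHFD and 602 to 915 CPM in KO CDAHFD. Of these, 5 were higher and 1 lower with the knock out alone, and 6 were higher with the diet alone and with both. Of the 8 hepatocyte markers 6 were lower with the knock out alone and 8 with the diet alone and with both. Their summed level was 89170 to 106663 CPM in WT chow, 75164 and 87875 CPM in KO chow and 45136 to 59083 CPM in the CDAHFD groups. Of 7 endothelial markers 1 was higher with the knock out alone, and 4 were lower with the diet alone and with both. Of 7 T and NK cell markers 5 were higher and 1 lower with the knock out alone and with the diet alone, and 4 and 1 with both. None of 5 B cell markers was called against WT chow. The 5 haemoglobin genes were all lower with the diet alone, 1 was lower with both, and 1 was higher and 1 lower with the knock out alone. Of the 6 neutrophil markers 5 were tested, and 3, 4 and 5 were higher with the knock out, the diet and both. Their summed level was 1.10 to 9.16 CPM in WT chow and 10.8 to 23.4 CPM elsewhere, while the defining marker Ly6g had at most 3 counts in every library. The part of these cells in the rise of Tuba1a, Tuba1b, Tuba8, Tubb2b, Tubb5 and Tubb6, and in the fall of Tuba4a, was not tested.

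Other microtubule genes were read against all genes tested, of which 22.0% were higher and 17.0% lower in KO chow and 26.1% and 25.0% in WT CDAHFD. Of the 10 remaining tubulin genes 6 were tested, Tuba3b and Tubal3 had no count in any library (which allows up to 3 counts in each), and Tubb1 and Tuba3a had 48 and 5 counts in all. Tubg1, the gamma-tubulin that nucleates microtubules, was the one called as lower, at 39.7 ± 3.22 CPM in WT chow, 28.4 ± 3.06 in KO chow (log2 -0.48 ± 0.18, adjusted p = 0.0494, edgeR) and 23.1 ± 1.14 in WT CDAHFD (-0.78 ± 0.16, adjusted p = 0.00128). Tubb3 (0 to 31 counts per library) and Tubb4a (10 to 89 counts), named after their values were seen, were called as higher in both comparisons. The γ-tubulin ring and augmin genes, which start and branch microtubules, had 3 higher and 3 lower of 17 in KO chow and 4 and 3 in WT CDAHFD, shares near those of all genes. Haus8 (2.24 ± 0.32 and 2.49 ± 0.29) and Haus6 (0.69 ± 0.15 and 0.44 ± 0.13) rose in both. Haus3 (1.07 ± 0.16) rose in KO chow and Cdk5rap2 (0.68 ± 0.14) in WT CDAHFD. Mzt2 (-0.78 ± 0.20 and -0.86 ± 0.17) and Tubgcp3 (-0.38 ± 0.10 and -0.22 ± 0.09) fell in both. Tubgcp6 (-0.63 ± 0.23) fell in KO chow and Haus4 (-0.49 ± 0.17) in WT CDAHFD.

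Genes that fold tubulin, the prefoldin and CCT chaperonins and the tubulin cofactors, came next. Of 22, 1 was higher and 2 were lower in KO chow, and 0 were higher and 7 lower in WT CDAHFD, with a median log2 change of 0.02 and -0.26. The prefoldin subunit Vbp1 rose in KO chow (0.74 ± 0.15, adjusted p = 0.00214, edgeR), while Pfdn2 (-0.52 ± 0.13 and -0.81 ± 0.11) and Pfdn6 (-0.50 ± 0.17 and -0.76 ± 0.15) fell in KO chow and WT CDAHFD. The CCT subunit Tcp1 fell in WT CDAHFD, from 195 ± 7.73 to 129 ± 3.14 CPM.

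Enzymes that modify tubulin were mixed, with 1 higher and 5 lower of 23 tested in KO chow and 3 and 4 in WT CDAHFD. Atat1, which acetylates alpha-tubulin inside the microtubule, had 22.4 ± 1.84 CPM in WT chow and fell to 9.67 ± 0.511 in KO chow (log2 -1.21 ± 0.16, adjusted p = 8.59e-05, edgeR) and 11.8 ± 2.07 in WT CDAHFD (-0.92 ± 0.14, adjusted p = 0.000121). The deacetylase Hdac6 fell in WT CDAHFD (-0.39 ± 0.10, adjusted p = 0.00659). The glutamylase Ttll5 (-0.66 ± 0.22) and the deglutamylase Agbl5 (-0.58 ± 0.17) fell in KO chow. In WT CDAHFD the deglutamylase Agbl3 fell (-1.05 ± 0.17) and Svbp, the partner of the enzymes that remove the C-terminal tyrosine, rose (0.46 ± 0.16).

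Of 33 genes of proteins that bind microtubules, 11 were higher and 1 was lower in KO chow and 17 were higher and 2 lower in WT CDAHFD, with a median log2 change of 0.35 and 0.48. Stmn1, which sequesters tubulin dimers, had 5.38 ± 0.599 CPM in WT chow and rose to 50.8 ± 19.6 in KO chow (3.24 ± 0.21, adjusted p = 3.35e-07, edgeR). Fignl1, of the severing enzyme family, rose in both comparisons (3.84 ± 0.25 and 3.16 ± 0.24), as did the plus-end protein Clip2 (2.36 ± 0.25 and 2.77 ± 0.23), and Clip3 rose in WT CDAHFD (2.82 ± 0.32). Map7, which recruits kinesin, fell by 0.37 on the log2 scale in each, and the severing enzyme Spast fell in WT CDAHFD (-0.32 ± 0.09).

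The isotypes did not vary as 1 block over the 12 libraries. Pearson's r of log2 CPM, which holds both the group differences and the clock state that the libraries share, was 0.975 for Tubb2b with Tubb6 and 0.962 for Tuba1b with Tubb6, all of which separate WT chow from the rest. It was 0.946 for Tuba1c with Tubb4b, which both followed the clock score and did not separate the groups. Tuba4a was inverse to Tubb2b (-0.855) and Tuba1a (-0.844) and near 0 with Tubb4b (0.0259). Among the other genes most like the summed CPM of the 10 isotypes were Rnd1 (r = 0.949), Hist1h2be (0.944), Pter (0.937) and Vps45 (0.933), over 12 libraries.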

How the data were processed

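Values are read counts per Ensembl gene as deposited, without normalization. According to the submitters' processing notes and the study's methods, the authors checked reads of poly-A selected, non-directional libraries with FastQC 0.11.5, aligned them to GRCm38 with STAR 2.7.3a and used DESeq2. The counting program and annotation release are not given in the sources used here. The labels give 4, 3, 2 and 3 libraries, whereas the study's methods state equal groups and its histology list gives the KO groups the reverse numbers of mice. A description in the labels numbers KO chow replicate 2 as mouse 3. Groups follow the labels.

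GENCODE M21 named 52081 of 55357 identifiers (99.7% of counts). In R 4.3.3, edgeR 4.0.16 kept 17358 genes (filterByExpr), scaled with TMM, and fitted a quasi-likelihood model with 4 group means over 12 libraries (earlier defaults). Benjamini-Hochberg adjustment ran over all genes tested, and calls are at an adjusted p under 0.05. SEs are the log2 fold change over the root of F. The steps were tested on simulated data. Total counts per library set the precision, and p-values and limits from a count of 0 cover no other error. The members and lists were chosen with earlier results of these data known. All 10 members are named, and from each list up to 3 called genes per direction and comparison with the largest change and a mean of at least 50 counts. Alternatives were DESeq2 1.42.0, other scalings, filters and defaults, the compared groups only, a replicate block, a clock covariate and leaving out libraries. Tables and figures were made in Python 3.11.15 (pandas 2.3.3, matplotlib 3.10.9). Of the 5 genes most like the summed isotypes by Pearson's r, 1 is not reported here.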

Additional observations from a re-analysis of the deposited data

Results flagged for a closer look

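The effect of the diet differed between WT and KO liver, by the test of the interaction of genotype and diet (edgeR's quasi-likelihood test), in 6 isotypes. The log2 interaction was -4.13 for Tubb2b, -2.71 for Tubb6, -2.71 for Tuba8, -1.11 for Tuba1b, -1.09 for Tuba1a and 1.58 for Tuba4a. In each the diet moved WT liver away from WT chow by more than it moved KO liver away from KO chow. In WT liver the diet changed Tubb2b by 3.89, Tubb6 by 2.39, Tuba8 by 2.21, Tuba1b by 1.01, Tuba1a by 1.67 and Tuba4a by -1.77 on the log2 scale. In KO liver the same values were -0.24, -0.32, -0.50, -0.11, 0.58 and -0.19, none of which passed the test.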

How the results depend on the processing

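Each library was left out in turn. Against WT chow 6 to 10 members were then called with the knock out alone (KO chow, 4361 to 7137 of all genes). With the diet alone (WT CDAHFD) 7 to 8 were called (7323 to 9030 of all genes), and with both (KO CDAHFD) 7 to 8 (7946 to 9124). In KO chow against WT CDAHFD 0 to 1 members were called (266 to 1468 of all genes). The interaction gave 4 to 7 (2861 to 4629) and the clock score 5 to 7 (704 to 1428). Without KO CDAHFD replicate 3, all 10 were called in KO chow (6949 of all genes). The other counts moved as follows. Testing every gene with a count called 1 member in KO CDAHFD against WT CDAHFD. The clock covariate called 3 in KO chow against WT CDAHFD. Leaving out the 4 libraries of negative clock score, chosen after seeing the data, called 6 there and 1 in KO CDAHFD against KO chow, Tuba1c (-0.74). The same-numbered libraries of different groups deviated together in 3 of 15 pairs (r over 0.1, median -0.0177) and differently numbered ones in 7 of 38 (median 0.0045). The numbers were thus not taken to pair the mice, though this check cannot decide it. The replicate block called 7, 8 and 7 members against WT chow (5433, 7797 and 8044 of all genes). It called 0, 0 and 1 among the other groups (59, 640 and 731 of all genes) and 6 for the interaction (3137). DESeq2 called 8, 7 and 7 against WT chow (7247, 8996 and 9161 of all genes) and 7 for the interaction (4648). Over all genes, 62 were called in KO CDAHFD against WT CDAHFD, and 250 with DESeq2, 215 with every gene with a count, 178 with the covariate, 153 with the compared groups only, 114 without the 4 libraries and 103 with newer defaults. In KO CDAHFD against KO chow 1075 were called, and 1903 with DESeq2, 640 with the block, 610 without the 4 libraries and 577 with the compared groups only. In KO chow against WT CDAHFD 1063 were called, and 2074 with DESeq2, 2473 with the covariate, 1992 with the compared groups only and 2735 without the 4 libraries. With a library left out the first count ran from 26 to 76 and was 26 to 39 whichever library of its groups was left out. The second ran from 239 to 1442, with 239 without KO chow replicate 1, 304 without replicate 2 and 459 to 663 without KO CDAHFD replicate 1 or 3 or WT CDAHFD replicate 1. The third ran from 266 to 1468, with 266 without KO chow replicate 1 and 355 to 621 without replicate 2 or any WT CDAHFD replicate. Without KO chow replicate 1, 4361 genes were called in KO chow against WT chow, where 6763 were called with all libraries. For the clock score 1410 genes were called with all libraries, and 704 to 851 without KO chow replicate 1 or 2, WT chow replicate 3 or KO CDAHFD replicate 2.

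Scaling by library size only raised the median of all genes by 0.40, 0.51 and 0.57 on the log2 scale for the knock out, the diet and both, and 86.0%, 88.6% and 89.9% of the calls were then higher, against 56.4%, 51.0% and 51.4%. For KO CDAHFD against KO chow the share was 90.0% against 60.7%, for KO chow against WT CDAHFD 19.1% against 44.2% and for the interaction 13.7% against 37.3%. With it 10, 9 and 10 members were called, where 8186, 10262 and 10870 of the 17358 genes tested were called. Tuba4a was called as lower (-0.83, -1.21 and -0.84).

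Direction turned only in members that were not called. In WT CDAHFD against WT chow, Tuba1c was -0.0035 with the block, -0.13 with the clock covariate, -0.23 without the 4 libraries and -0.054 to 0.19 with a library left out, and Tubb4b was -0.0058 without the 4 libraries. In KO CDAHFD against WT CDAHFD, Tubb4b was -0.017 with the block and -0.16 to 0.35 with a library left out, Tubb2a was 0.38 with the covariate, 0.15 without the 4 libraries and -0.41 to 0.15 with a library left out, and Tubb6 was 0.015 without the 4 libraries and -0.31 to 0.015 with a library left out. In KO CDAHFD against KO chow, Tubb5 was 0.019 with RLE size factors or DESeq2, 0.19 with library size only, 0.087 with the block, 0.12 with the covariate and -0.21 to 0.23 with a library left out, and Tuba1b was 0.088 with library size only, 0.0042 with the block, 0.036 with the covariate and -0.47 to 0.39 with a library left out. There, leaving out a library gave -0.98 to 0.12 for Tuba1c, -0.46 to 0.15 for Tuba4a, -0.69 to 0.17 for Tubb4b and -0.63 to 0.087 for Tubb6. In KO chow against WT CDAHFD, library size only gave -0.11 for Tuba1a, -0.028 for Tubb5 and -0.020 for Tubb6, and the block gave -0.16 for Tubb2a. Leaving out a library gave -0.085 to 0.16 for Tuba1a, -0.11 to 0.32 for Tubb5, -0.27 to 0.44 for Tubb6, -0.051 to 0.60 for Tubb2a, -0.25 to 0.60 for Tuba1b and -0.10 to 0.75 for Tubb4b. It gave -1.01 to 0.075 for the interaction of Tuba1c and -0.033 to 0.10 for the clock slope of Tuba1a. The cause was not tested.

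Depth limits Tubb2b in WT chow most, where its counts of 2 to 5 make each CPM uncertain, while the other members had at least 11 counts in every library. KO chow rests on 2 libraries.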
